A study of Mus musculus with 4 samples.

Results

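Aminoacyl-tRNA synthetase genes were taken by name from a list drawn up for this work and matched to the count tables by Ensembl identifier through the GENCODE M21 annotation. The list held 36 of the 31053 genes counted. 20 of them encode cytosolic enzymes (Aars, Cars, Dars, Eprs, Farsa, Farsb, Gars, Hars, Iars, Kars, Lars, Mars, Nars, Qars, Rars, Sars, Tars, Vars, Wars and Yars) and 16, whose names end in ars2, encode mitochondrial enzymes (Aars2, Cars2, Ears2, Fars2, Hars2, Iars2, Lars2, Mars2, Nars2, Pars2, Rars2, Sars2, Tars2, Vars2, Wars2 and Yars2). The mitochondrial aspartyl enzyme was not analysed here. All 36 genes had enough counts to be tested.

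The libraries came from primary cortical neurons of wild-type (WT) C57BL/6J mice, cultured from embryonic cortex with floxuridine added to limit dividing cells. The RPS2 IP group (n = 2) holds RNA that was crosslinked in the cell to the ribosomal protein RPS2, which sits in the small subunit, then trimmed with RNase I and pulled down with an antibody to endogenous RPS2 (enhanced crosslinking and immunoprecipitation, eCLIP). The total RNA group (n = 2) holds RNA taken from the samples before the pull-down, and the study takes the ratio of IP to total counts as a translational efficiency. No compound or transgene distinguishes the groups, but the labels name rRNA depletion as the treatment of the RPS2 IP group alone, while the methods place the depletion after library preparation without naming the libraries. If the total RNA libraries were not depleted, depletion and pull-down cannot be told apart. Libraries with the same replicate number were treated as a pair from 1 culture. The labels do not say that the 2 numbers are separate cultures. Where the replicate number enters a fit as a block, the difference between the numbers is taken out. The p-values of such fits rest on how the IP to total RNA ratios varied between the 2 pairs, pooled across genes, which may be technical. Fits without the block use the spread between the libraries of a group. Whether either spread is that of separate cultures is not known.

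Each synthetase joins 1 amino acid to the tRNAs that carry it, and the charged tRNAs are then used by the ribosome. Cytosolic and mitochondrial translation use separate tRNA sets, and most amino acids have a separate nuclear gene for each compartment. Gars and Kars are known exceptions that make both forms, Eprs joins the glutamyl and prolyl enzymes in a single protein, and Farsa and Farsb encode the subunits of a single phenylalanyl enzyme. Many cytosolic synthetase genes are known targets of the stress-induced factor ATF4, which binds the C/EBP-ATF response element in their promoters.

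Because the cytosolic genes differed together between the replicate numbers, as described further on, their promoters were searched for that element, spelled TGATGNAA, on both strands. The window ran from 250 bases before to 50 bases after each RefSeq start site on GRCm38.p6. The promoter table held 26 of the 36 genes. It held no entry for Cars, Hars, Lars, Mars, Nars, Rars, Vars, Wars, Hars2 or Pars2. Counted per gene, the motif was present in a promoter window of 5 of 12 cytosolic genes (41.7%) and of 0 of 14 mitochondrial genes. Of all 27025 genes with promoter windows of the same length, 1219 (4.51%) held it. The match nearest the start site of each of the 5 genes is printed below to show the element, 5′ to 3′ in the direction of the gene, as 30-base windows with the motif in capitals. Of these only the Yars match reads TGATG in the direction of the gene, and the others lie on the opposite strand.
Aars, chr8:111033840-111033869: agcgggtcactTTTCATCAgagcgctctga
Gars, chr6:55037960-55037989: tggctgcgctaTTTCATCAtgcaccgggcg
Iars, chr13:49682126-49682155: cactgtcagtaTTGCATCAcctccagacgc
Tars, chr15:11399655-11399684: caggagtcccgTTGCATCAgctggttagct
Yars, chr4:129189895-129189924: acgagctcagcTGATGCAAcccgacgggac
The Tars gene lies on the minus strand and the others on the plus strand. Counted from the start site, the motif began at base 10 in Aars, -30 in Gars, 8 in Iars, -15 in Tars and 4 in Yars. A match of letters describes these windows and is not evidence of binding. Many cytosolic synthetase genes are known ATF4 targets, so a higher share with the motif was foreseeable and is not a result of these libraries. Any part of ATF4 in the difference between the replicate numbers was not tested.

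The libraries held 16460545 counts in IP replicate 1, 9941486 in IP replicate 2, 5281196 in total RNA replicate 1 and 4899718 in total RNA replicate 2. A single gene, Gm42418, which lies over a ribosomal RNA repeat, took 42.6%, 27.9%, 39.8% and 15.3% of them in the same order. The counts of a cytosolic synthetase ran from 82 (Rars, total RNA replicate 1) to 4898 (Aars, IP replicate 2), and those of a mitochondrial synthetase other than Lars2 from 8 (Ears2, total RNA replicate 1) to 528 (Iars2, IP replicate 1). The standard errors followed the counts, with a median of 0.11 on the log2 scale for cytosolic genes and 0.26 for the mitochondrial genes other than Lars2. Of the markers checked, neuronal genes, the label's cell type, summed to between 3904 and 4641 CPM (counts per 1000000 of the TMM-scaled library total). Astrocyte markers summed to between 1167 and 3159 CPM, so RNA of glial genes was present as well. Microglial markers summed to between 5.91 and 88.5 CPM and oligodendrocyte lineage markers to between 57.1 and 67.3 CPM. Endothelial genes summed to at most 1.78 CPM, with Cldn5 at 0 in all 4 libraries.

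Levels were compared between genes as CPM per kilobase of exon. The cytosolic enzymes were the more abundant group, with a median total RNA level of 20.4 against 1.83 for the mitochondrial enzymes and 3.66 for all 12336 genes tested. All 20 cytosolic genes lay above the median of all genes in each of the 4 libraries, whereas 2 to 4 of the 15 mitochondrial genes other than Lars2 did. Scaling by library totals gave 22.2 and 1.86. Either scaling applies the same factor to all genes of a library, so the choice cannot change the ratio between genes within it.

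Among cytosolic enzymes the highest levels in total RNA belonged to Nars (asparaginyl; 87.4 ± 48.9, SD, n = 2), Gars (glycyl; 68.0 ± 26.4) and Aars (alanyl; 46.0 ± 15.9). The lowest belonged to Dars (aspartyl; 5.13 ± 0.685), Farsa (the catalytic phenylalanyl subunit; 6.67 ± 2.23) and Qars (glutaminyl; 6.74 ± 1.16). The spread was wide for Nars, with 52.8 in total RNA replicate 1 and 122 in replicate 2. Among mitochondrial enzymes Lars2 (leucyl) stood apart at 309 ± 350, followed by Aars2 (alanyl; 10.2 ± 0.421) and Iars2 (isoleucyl; 4.35 ± 0.530). The Lars2 level was 556 in total RNA replicate 1 and 61.6 in replicate 2. The Lars2 transcript also shares sequence with other annotated genes, as described further on, so its level is uncertain. Ears2 (glutamyl; 0.380 ± 0.0487), Wars2 (tryptophanyl; 0.533 ± 0.0662) and Mars2 (methionyl; 0.645 ± 0.173) were the lowest. These levels divide by the length of all annotated exons of a gene. Divided instead by the length of the transcript with the longest coding sequence, an alternative chosen after seeing the data, the order changed, with Sars (seryl) highest of the cytosolic genes at 107 ± 33.4, before Gars (89.1 ± 34.6) and Nars (83.8 ± 46.9), and Lars, Tars and Dars lowest. The group medians were then 28.7 and 3.47, and the 3 lowest mitochondrial genes were again Ears2, Wars2 and Mars2.

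**Figure D1:**
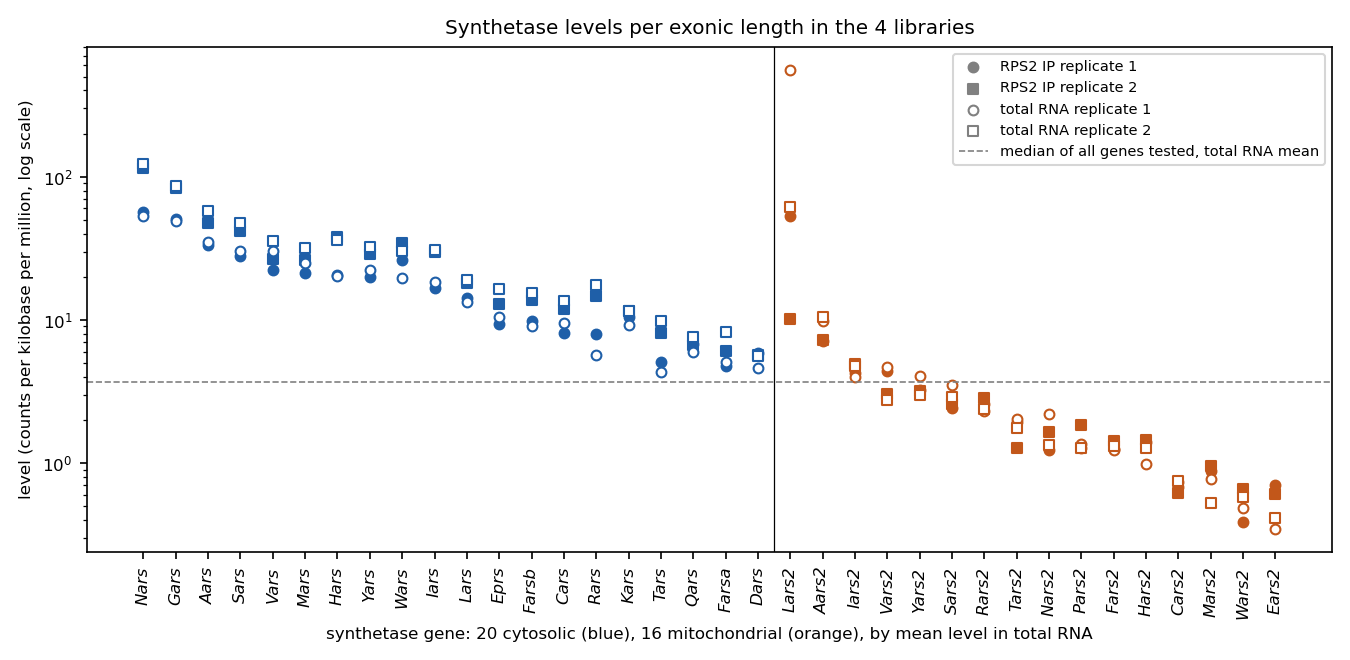
Level of each synthetase gene as CPM per kilobase of exon (log axis) in the 2 RPS2 IP libraries (filled) and the 2 total RNA libraries (open), with replicate 1 as circles and replicate 2 as squares. The 20 cytosolic genes (blue) lie above the median of all genes tested (3.66, dashed), and the mitochondrial genes (orange) lie mostly below it, apart from Lars2, whose 4 libraries spread from 10.1 to 556.

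The same order held gene by gene. Over 17 pairings of a cytosolic with a mitochondrial gene for the same amino acid, the cytosolic gene had the higher level per length in all 4 libraries in 16, with either length. Eprs and Fars2 each enter 2 pairings, so the 17 are not separate observations. Leaving out leucine, the ratio in total RNA replicate 1 ran from 2.14 (threonine, Tars over Tars2) to 40.3 (tryptophan, Wars over Wars2), with a median of 7.50. In total RNA replicate 2 it ran from 5.45 (alanine, Aars over Aars2) to 90.8 (asparagine, Nars over Nars2), with a median of 13.0. Leucine was the exception, but it rests on the uncertain level of Lars2, so the order of the 2 leucyl mRNAs is not settled. Lars stood to Lars2 as 0.0238 in total RNA replicate 1, 0.307 in total RNA replicate 2, 0.270 in IP replicate 1 and 1.78 in IP replicate 2.

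**Figure D2:**
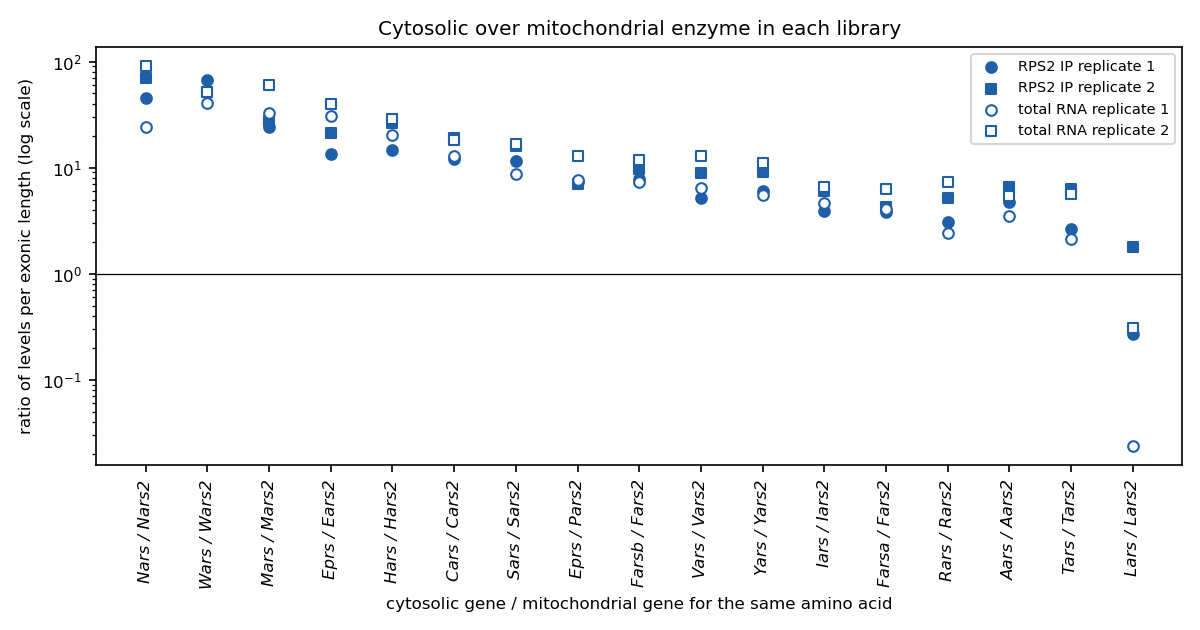
Ratio of the level per exonic length of the cytosolic gene to that of the mitochondrial gene for the same amino acid (log axis), with 1 point per library and a line at 1. In 16 of 17 pairings all 4 points lie above 1, and the Lars over Lars2 points spread from 0.0238 to 1.78 across the line.

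The comparison of RPS2 IP with total RNA asks which synthetase mRNAs took a larger or smaller share after the pull-down than before it. The study reads this ratio as a translational efficiency. Any difference in rRNA depletion between the groups, as given above, would be part of it. In an edgeR quasi-likelihood fit with the replicate number as a block, 818 of 12336 genes were called higher in the IP (6.63%) and 931 lower (7.55%) at an adjusted p under 0.05. Of the cytosolic synthetases 1 was called higher (Wars) and 2 lower (Vars and Eprs). Of the mitochondrial synthetases 0 were called higher and 2 lower (Lars2 and Aars2). At an unadjusted p under 0.05, 1 mitochondrial gene was higher in the edgeR fit, against 0 by DESeq2 and 0 by limma-voom, which also called 0 higher after adjustment. Over all 12336 genes, 1587 were higher at that unadjusted threshold in edgeR, 485 in DESeq2 and 1442 in limma-voom. At an adjusted p under 0.05 in edgeR, 5% of the cytosolic genes were higher and 10% lower. The mitochondrial shares were 0% higher and 12.5% lower, and each share rests on at most 2 genes. The split of calls over all genes depended on scaling, with 283 higher and 878 lower by library totals alone, and 1236 higher and 674 lower by totals without Gm42418.

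The median log2 fold change was -0.054 for the cytosolic genes (range -0.42 to 0.30) and -0.0093 for the mitochondrial genes (range -3.02 to 0.77, or -0.51 to 0.77 without Lars2), against 0.011 over all genes. Outside Lars2, Aars2, Ears2 and Mars2 no synthetase had an estimate beyond 0.5 in either direction. The difference of the medians, cytosolic minus mitochondrial, was -0.044. It was 0.12 in pair 1 and -0.30 in pair 2, so its sign was not the same in the 2 pairs. The cytosolic median moved from 0.030 in pair 1 to -0.17 in pair 2, with 9 and 16 of 20 genes below 0, while the mitochondrial median moved from -0.093 to 0.13. Without Lars2 the mitochondrial median was 0.011 and the difference -0.065.

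**Figure D3:**
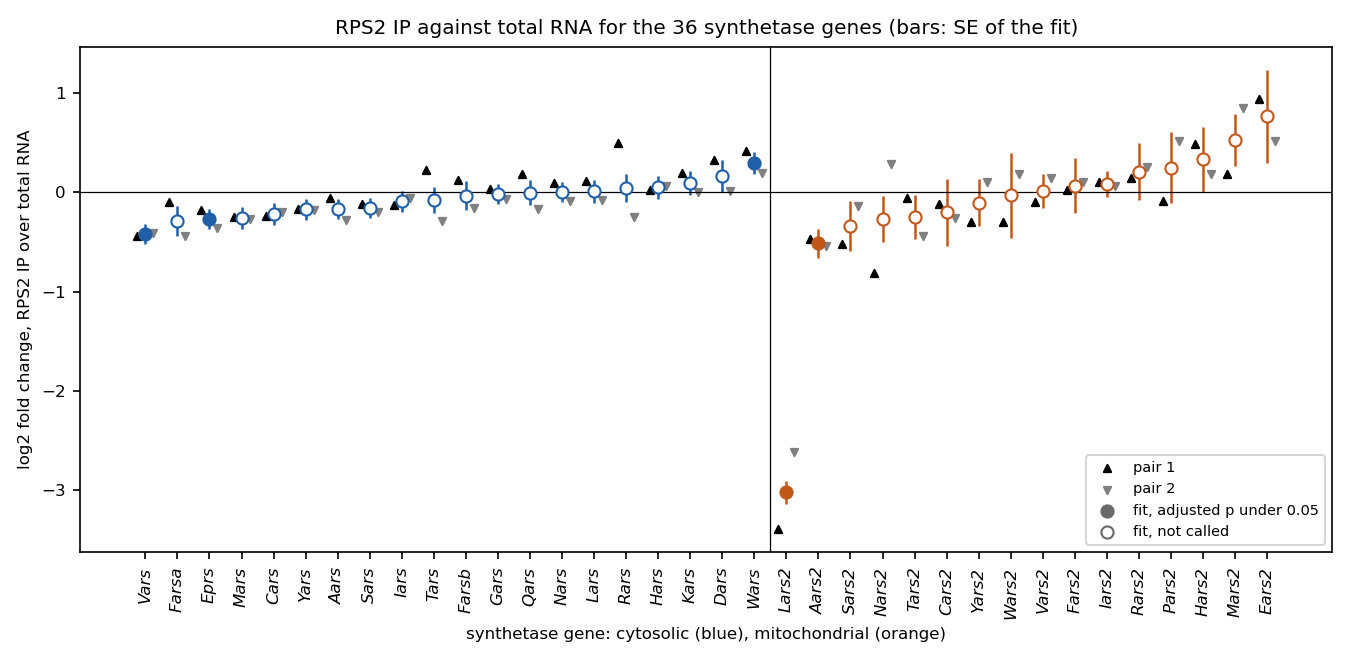
Log2 fold change of RPS2 IP over total RNA for the 36 genes, ordered within the cytosolic (blue) and mitochondrial (orange) groups, with the edgeR estimate and its SE (circles and bars, filled where the adjusted p was under 0.05) and the log2 ratio of each pair (triangles). The estimates of all genes but Lars2, at -3.02, lie between -0.51 and 0.77. Their pair ratios reach from -0.81 (Nars2, pair 1) to 0.94 (Ears2, pair 1). The bars are longest for mitochondrial genes with few counts, such as Ears2 (SE 0.467).

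Lars2 (ENSMUSG00000035202, chromosome 9, 123366927 to 123462666, plus strand, mm10) showed by far the widest difference of the 36. In replicates 1 and 2 its level was 588 and 112 CPM after the pull-down, against 6166 and 684 CPM in total RNA. The groups did not overlap, but IP replicate 1 came within 100 CPM of total RNA replicate 2, and replicate 1 exceeded replicate 2 by 5.26 times in the IP and by 9.02 times in total RNA. The log2 fold change was -3.02 ± 0.117 (SE; edgeR adjusted p = 6.3e-139), a level 8.11 times lower in the IP, with -3.39 in pair 1 and -2.61 in pair 2. It was the 12th lowest of the 12336 genes tested.

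Lars2 alone set much of the group sum. It made up 97.0% of the summed mitochondrial CPM in total RNA replicate 1, 79.8% in total RNA replicate 2, 77.5% in IP replicate 1 and 39.1% in IP replicate 2. Without it the other 15 mitochondrial genes summed to 188 and 173 CPM in total RNA, against 171 and 174 CPM in the IP. With Lars2 the sums ran from 286 to 6355 CPM.

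The 3′ end of the Lars2 transcript shares sequence with other annotated genes. In its last exon (21 of 21), after the stop codon, 72 bases at chr9:123462048-123462119 match the antisense gene Gm15564 at 98.6% identity, and a further 50 bases at chr9:123461933-123461982 match AA474408 at 96.0%. Gm15564, named here after its values were seen, stood at 171 and 23.4 CPM in the IP against 1068 and 320 CPM in total RNA. Its log2 fold change was -3.12 ± 0.109 (edgeR adjusted p = 7.5e-170), the 11th lowest of all genes. Gm42418 had a log2 fold change of 0.57 ± 0.233 (edgeR adjusted p = 0.0847), and its level was also higher in replicate 1 of both groups. The tables give 1 count per gene, so the place of the reads within Lars2 is not known and the part of the shared stretches in its counts was not tested.

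The call on Lars2 held in all 10 fits with the replicate block (log2 fold change -3.09 to -2.92). Without the block, edgeR put it at -3.29 with an adjusted p of 1.00, as it did for every gene. Leaving out single libraries in fits without the block gave -4.94 without IP replicate 1 (adjusted p = 2.2e-05), -2.55 without IP replicate 2, -0.97 without total RNA replicate 1 and -4.14 without total RNA replicate 2, the last 3 with adjusted p of at least 0.741. The lone library in such a fit is assumed to vary like the other group.

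Among the cytosolic enzymes Vars (valyl; ENSMUSG00000007029, chromosome 17, 35000987 to 35016322, plus strand) was lower in the IP. The IP held 126 and 150 CPM, against 171 and 198 CPM in total RNA. Vars was the only cytosolic gene whose IP values were both under both total RNA values, a pattern seen in 14.9% of all genes. The log2 fold change was -0.42 ± 0.101 (edgeR adjusted p = 7.5e-04), 1.34 times lower, and the pairs gave -0.44 and -0.41. The call held in 9 of 10 fits with the block and was lost with an offset for GC content and length (-0.19, adjusted p = 0.273). Fits without the block that leave out 1 library gave -0.56 to -0.30, none of them called.

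Eprs and Wars lay close to the threshold. Eprs, the joint glutamyl-prolyl enzyme (ENSMUSG00000026615, chromosome 1, 185363044 to 185428360, plus strand), had IP values of 169 and 233 CPM against total RNA values of 191 and 300 CPM, lower in the IP in each pair although the groups overlap. Its log2 fold change was -0.27 ± 0.0992 (edgeR adjusted p = 0.0460). Wars, the tryptophanyl enzyme (ENSMUSG00000021266, chromosome 12, 108860030 to 108894174, minus strand), had IP values of 90.3 and 118 CPM against total RNA values of 67.6 and 104 CPM, higher in the IP in each pair with overlapping groups. Its log2 fold change was 0.30 ± 0.109 (edgeR adjusted p = 0.0467).

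Eprs was called in 4 and Wars in 3 of the 10 fits with the block. With single libraries left out of the fit without the block, Eprs stood at -0.072 without IP replicate 1, -0.55 without IP replicate 2, -0.57 without total RNA replicate 1 and 0.073 without total RNA replicate 2. Wars stood at 0.47, 0.063, 0.0097 and 0.62 in the same order. None of these 8 values was called, and the one of Eprs without total RNA replicate 2 had the opposite sign.

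Of the cytosolic genes that were not called, Farsa had the lowest value next to Vars, at -0.29 ± 0.150 with pairs of -0.099 and -0.44, and Mars (methionyl) followed Eprs at -0.26 ± 0.109 with pairs of -0.25 and -0.26. At the other end, Dars stood at 0.16 ± 0.158 and Kars (lysyl) at 0.094 ± 0.123. Dars was the only cytosolic gene with both IP libraries (25.4 and 24.8 CPM) above both total RNA libraries (20.2 and 24.5 CPM), and the nearest values of the groups were less than 1 CPM apart. Rars (arginyl) had the pairs farthest apart, at 0.49 and -0.24. Over all genes 16.9% had both IP libraries above both total RNA libraries.

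Aars2 (mitochondrial alanyl; ENSMUSG00000023938, chromosome 17, 45506841 to 45520842, plus strand) was the other mitochondrial gene called lower. Its IP values were 23.8 and 24.0 CPM, against 33.1 and 35.1 CPM in total RNA. The replicates of each group lay close together and the groups did not overlap. The log2 fold change was -0.51 ± 0.146 (edgeR adjusted p = 0.00621), 1.43 times lower, with pairs of -0.47 and -0.54. The call held in 8 of 10 fits with the block. It was lost with DESeq2 (-0.53, adjusted p = 0.155) and with the GC and length offset (-0.36, adjusted p = 0.110), and without the block no fit that left out 1 library called it (-0.55 to -0.47).

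The highest mitochondrial values were not called. Ears2 held 3.61 and 3.14 CPM in the IP against 1.78 and 2.13 CPM in total RNA, with a log2 fold change of 0.77 ± 0.467 (edgeR adjusted p = 0.301). Mars2 held 9.89 and 10.9 CPM against 8.67 and 5.91 CPM, at 0.53 ± 0.263 (edgeR adjusted p = 0.174). Hars2 (histidyl) stood at 0.33 ± 0.325 and Rars2 (arginyl) at 0.21 ± 0.288. In these 4 of 16 genes (25%, against 16.9% over all genes) both IP libraries lay above both total RNA libraries, and the counts behind Ears2 in total RNA were 8 and 13, too few for the test to separate a difference of this size.

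The other low mitochondrial values were likewise not called. Sars2 (seryl) held 8.01 and 8.61 CPM in the IP against 11.6 and 9.52 CPM in total RNA, at -0.33 ± 0.253 (edgeR adjusted p = 0.429). It shared with Lars2, Aars2 and Cars2 (cysteinyl, -0.20 ± 0.337) the pattern of both IP libraries below both total RNA libraries (25% of the 16, against 14.9% over all genes). Nars2 (asparaginyl) had the pairs farthest apart, at -0.81 and 0.29, with 15.3 CPM in total RNA replicate 1 and 8.66 to 11.5 CPM in the other 3 libraries.

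Grouped by known role, the enzymes of the multisynthetase complex (Eprs, Iars, Lars, Qars, Mars, Kars, Rars and Dars), a cytosolic assembly of synthetases, centred on a log2 fold change of 0.0047 (median), with 0 of 8 called higher and 1 lower (Eprs, 12.5%, against 7.55% over all genes). The 12 other cytosolic genes had a median of -0.12, with 1 called higher and 1 lower (8.33% each, against 6.63% and 7.55% over all genes). The scaffold genes of the complex, Aimp1, Aimp2 and Eef1e1, had 0 of 3 called in either direction in edgeR, DESeq2 and limma-voom. They also had 0 at an unadjusted p under 0.05 in any of these. Class I enzymes, which share a Rossmann-type catalytic fold, had 1 of 19 called higher (Wars) and 3 lower (Vars, Eprs and Lars2), which is 5.26% and 15.8% against 6.63% and 7.55% over all genes. Class II enzymes, which share another fold, had 0 of 17 called higher, with 0 at an unadjusted p under 0.05 in edgeR, DESeq2 or limma-voom, and 1 lower (Aars2, 5.88%). Gars and Kars, which serve both compartments, stood at -0.020 ± 0.0999 and 0.094 ± 0.123, neither called.

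Partners of the synthetases and other related genes were taken from a list as well. Among those listed with the charging partners is Tarsl2, a threonyl synthetase-like gene outside the 36. Its log2 fold change was -0.26 ± 0.184, not called. Of 10 genes for tRNA charging partners and proofreading, 8 were tested (Aarsd1 and Prorsd1 had at most 4 counts in any library) and 0 were called by edgeR, DESeq2 or limma-voom, with 1 higher at an unadjusted p under 0.05 in edgeR, 1 in limma-voom and 0 in DESeq2. Of 17 mitochondrial charging partners and translation factors, 0 were called by these tools, with 1 higher and 2 lower at an unadjusted p under 0.05 in edgeR, 0 and 2 in limma-voom, and 0 and 0 in DESeq2. Their median log2 fold changes were -0.027 and -0.044. Over all 12336 genes, edgeR called 6.63% higher and 7.55% lower. At an unadjusted p under 0.05, 1587 of all genes were higher and 1627 lower in edgeR. Those counts were 1442 and 1667 in limma-voom, and 485 and 826 in DESeq2. No test set these lists against all genes.

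By amino acid, the cytosolic gene had the higher log2 fold change in 6 of 17 pairings. It was higher in both pairs of libraries in 4 (alanine, leucine, threonine and tryptophan) and lower in both in 7. The widest gap besides leucine (3.03) was glutamate, where Eprs lay 1.04 below Ears2 in the difference of log2 fold changes (-1.04). Methionine followed (Mars minus Mars2, -0.79). The gaps for glutamate and methionine rest on few counts, in total RNA 8 and 13 for Ears2 and 39 and 36 for Mars2. Alanine was the only amino acid with a called mitochondrial gene besides leucine, and Aars lay 0.35 above Aars2, with 0.42 in pair 1 and 0.27 in pair 2. These differences between genes were not tested.

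Cytosolic synthetase levels lay further apart between the replicate numbers than between RPS2 IP and total RNA. A difference between the numbers was also seen over all genes. There, same-numbered libraries deviated together (correlation 0.733), and the biological coefficient of variation was 29.7% without the block against 7.93% with it. In 18 of 20 genes the level was higher in replicate 2 than in replicate 1 in the IP and in total RNA alike, and in 0 genes it was lower in both. Over all genes 37.4% were higher in replicate 2 in both and 38.4% higher in replicate 1 in both. The related lists also leaned this way, so the direction was not particular to the synthetases. Higher in replicate 2 in both were 3 of 3 complex scaffold genes and 6 of 8 tested charging partners and proofreading genes. In these lists 0 were higher in replicate 1 in both. Of the 17 mitochondrial charging partners and translation factors, 8 were higher in replicate 2 in both and 2 in replicate 1 in both. The median log2 difference, replicate 2 minus replicate 1, was 0.50 in the IP and 0.65 in total RNA for the cytosolic genes, and 0.10 and 0.021 for the 15 mitochondrial genes other than Lars2, of which 6 were higher in replicate 2 in both and 3 in replicate 1 in both.

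Nars showed this plainly, with 149 and 302 CPM in the IP libraries, and 139 and 321 CPM in the total RNA libraries. Rars held 25.8 and 47.5 CPM in the IP libraries against 18.2 and 56.3 CPM, the widest total RNA difference of the group at 1.63 on the log2 scale. Dars and Qars were the exceptions, with log2 differences of -0.037 and -0.00087 for the IP, against 0.27 and 0.35 for total RNA. The 5 cytosolic genes with the promoter motif (Aars, Gars, Iars, Tars and Yars) had differences of 0.50 to 0.82 in the IP, against 0.55 to 1.19 in total RNA. The 7 whose promoter windows lacked it ranged from -0.037 to 0.57 and from 0.27 to 0.78. The ranges of these groups overlap, and their medians of RPS2 IP over total RNA were -0.089 and -0.033. The other cytosolic genes had no promoter entry and are in neither group. Among them are Nars, with the widest IP difference (1.02), and Rars, with the widest in total RNA (1.63). Vars, with the narrowest in total RNA (0.22), is also among them. The link of motif and difference was not tested.

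**Figure D4:**
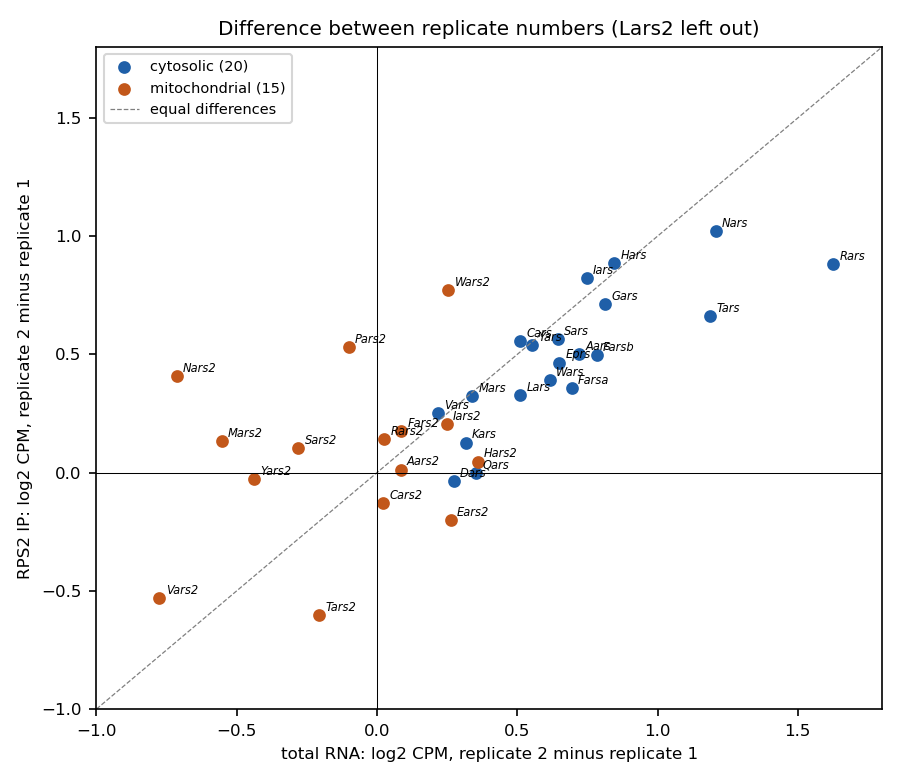
Log2 difference in CPM between replicate 2 and replicate 1 in total RNA (x axis) and in RPS2 IP (y axis) for 20 cytosolic (blue) and 15 mitochondrial (orange) synthetase genes, with Lars2 left out. Of the cytosolic genes 18 lie in the quadrant where replicate 2 is higher in both, and the mitochondrial genes scatter around 0.

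The replicate numbers also differed in glial markers. In replicates 1 and 2, astrocyte markers summed to 3159 and 1318 CPM after the pull-down and to 2594 and 1167 CPM before it, and the 5 that were tested, of 6, were all higher in replicate 1 in both. Microglial markers summed to 84.7 and 7.26 CPM after it and to 88.5 and 5.91 CPM before it, with the 4 that were tested, of 6, all higher in replicate 1 in both, P2ry12 and Aif1 at 0 in both replicate 2 libraries and Cx3cr1 at 0 in total RNA replicate 2. Neuronal markers had 4 of 9 genes higher in replicate 2 in both and 2 higher in replicate 1 in both, and oligodendrocyte lineage markers, at 57.1 to 67.3 CPM, 1 and 3 of the 4 tested of 6. In bulk samples fewer cells of a type and less RNA per cell cannot be told apart, and the part of these cells in the synthetase difference was not tested. With 1 pair of libraries per number the difference itself could not be tested.

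GC content and, in the cytosolic genes, exonic length moved with the ratio. Over the 35 genes other than Lars2, Spearman's rho between GC content and the log2 fold change was -0.41 (-0.41 in pair 1 and -0.31 in pair 2), and over 12328 genes it was -0.29. For exonic length rho was -0.22 over the 35 genes and -0.17 over 12328. Over the cytosolic genes rho was -0.48 for GC content and -0.54 for length. Over the 15 mitochondrial genes it was -0.48 and -0.0036. These are descriptions across genes that share the same 4 libraries. Vars and Aars2, both called lower, had GC contents of 59.2% and 59.2%, against medians of 50.6% for cytosolic genes and 52.4% for the mitochondrial genes other than Lars2. Vars2 (mitochondrial valyl) had 60.3% and stood at 0.011 ± 0.170. Both calls were lost in the fit with an offset for GC content and length, as given above. The offset takes GC content and length together, so their parts cannot be told apart, and the cause of the loss was not tested.

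Few synthetase counts depend on how overlapping reads were assigned. The exons of 1 gene, Aars, overlap another gene on the same strand (Exosc6, over 1326 bases), and those of 10 genes overlap a gene on the opposite strand, among them Hars with Hars2 and Mars with Ddit3. Counting was stranded, so these opposite-strand overlaps were counted apart. The exons of 0 of the 36 genes held an annotated small RNA. Iars (isoleucyl) shares 49.9% of its coding transcript at 95% identity or more with the processed pseudogene Gm4849 (longest match 1656 bases at 96.0%), so its level is uncertain. Reads placed equally well in both would not have been counted, and its log2 fold change of -0.089 ± 0.105 compares libraries within the same gene. Wars2 shares 58 bases with other genes, and the 33 genes other than these and Lars2 share none at that identity over 50 bases or more.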

How the data were processed

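The authors trimmed single-end reads, aligned them to mm10 with STAR and, per the file headers, counted them per gene with featureCounts 1.5.3 (Subread), stranded, without multi-mapping reads or reads shared by overlapping genes. No removal of duplicates is stated. The deposited values are raw counts. Genes were named through GENCODE M21 (31011 of 31053 matched). The members and gene lists were chosen with earlier results of these data known.

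Low counts were filtered with filterByExpr and libraries scaled by TMM. RPS2 IP was compared with total RNA in edgeR 4.0.16 (R 4.3.3) by the two-sided quasi-likelihood test with the replicate number as a block, adjusted by Benjamini-Hochberg over all genes, because total RNA came from the same samples. Same-numbered libraries deviated together (correlation 0.733 over genes; only 2 pairs). The block leaves 1 residual degree of freedom, and the spread was borrowed wholly across genes (prior degrees of freedom infinite), so a gene's own spread between pairs carried no weight in its SE or p. SE is the log2 fold change over the root of F. Pair ratios used a prior count of 2. Alternatives used DESeq2 1.42.0 and limma 3.58.1. Sequence matches used blastn 2.17.0. The fits were also run on simulated counts. There the true IP to total RNA ratio of a gene was the same in each pair, so that run cannot show how the fits behave where pairs differ. Levels are CPM per kilobase of exon. Named genes were all members, those called, the 3 highest and lowest in each group by fold change and by total RNA level with values, and called genes of the lists. Of the promoter matches, 1 per gene is given, the nearest to the start site.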

Additional observations from a re-analysis of the deposited data

How the results depend on the processing

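Without the replicate block edgeR called 0 of 12336 genes higher and 0 lower (196 and 153 at an unadjusted p under 0.05), 0 cytosolic and 0 mitochondrial synthetases, and the biological coefficient of variation was 29.7%, against 7.93% with the block. Among the paired fits, all genes called higher numbered 283 with library totals only, 1236 with totals without Gm42418 and 158 with DESeq2, and genes called lower 382 with DESeq2 and 375 with the GC and length offset. Cytosolic genes called higher numbered 0 with library totals, median-ratio factors, no low-count filter, DESeq2, limma-voom, the offset and equal library totals, and cytosolic genes called lower 1 with library totals, totals without Gm42418, no filter, DESeq2 and equal totals and 0 with the offset. Mitochondrial genes called lower numbered 1 with DESeq2 and 1 with the offset. Leaving out 1 library (without the block) gave 0 to 0 genes called higher and 1 to 20 lower, 0 to 0 cytosolic genes higher and 0 to 0 lower, and 0 to 1 mitochondrial genes lower. The same fits put the cytosolic median at -0.48 to 0.27, the mitochondrial median at -0.043 to 0.065 and their difference at -0.48 to 0.31, and Eprs stood at -0.57 to 0.073, above 0 without total RNA replicate 2. The settings without Lars2 and per transcript length were chosen after seeing the data. The cause of these changes was not tested. Depth limits the mitochondrial genes most, with SE up to 0.47 (Ears2).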
